A study of Mus musculus with 6 samples.

Results

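The matrix metalloproteinase genes described here are Mmp2, Mmp3, Mmp8, Mmp9, Mmp10, Mmp11, Mmp12, Mmp13, Mmp14 and Mmp19, measured in mouse hepatic stellate cells that were either proliferating or senescent. Members were all probe sets (groups of short probes on the array that read 1 transcript) that the platform annotation gives to 1 of these 10 symbols and to no other gene. They came to 15 probe sets of 45101, and 10 genes of 18193. The 3 proliferating arrays were from cells that received doxycycline at 1 ug/ml and whose labels give p53 as knocked down. For the 3 senescent arrays the labels give a control treatment and expressed p53. Both groups were on a C57Bl/6 background and carried the same transgenes, CMV-rtTA and TRE-GFP-shRNA.p53.1224, in which doxycycline turns on both a green fluorescent protein and a short hairpin that silences p53. The drug was therefore given to the proliferating group alone, and its own effects and those of the knockdown cannot be told apart. Replicates are not described as separate animals or cultures, so p-values reflect only how far these samples differ, and that spread may be technical. The transcript that the hairpin targets was not analysed here.

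Matrix metalloproteinases are zinc-dependent enzymes that cut the proteins of the extracellular matrix. Most are secreted as inactive proenzymes, are switched on by removal of a propeptide, and are held in check by tissue inhibitors of metalloproteinases (TIMPs). In the liver, stellate cells lay down the collagen of a scar and also make several of the enzymes that can remove it, and senescent cells of many kinds are known to release such proteases.

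RNA of the collagenase gene Mmp13, of the stromelysin genes Mmp3 and Mmp10 and of the membrane-bound Mmp14 was higher in senescent cells, and RNA of Mmp19 was lower. Mmp13 rose 3.57-fold (log2 change 1.84 ± 0.11, SE, n = 3 per group), Mmp3 3.23-fold (1.69 ± 0.07), Mmp10 2.17-fold (1.12 ± 0.06) and Mmp14 1.35-fold (0.43 ± 0.08). With arrays scaled to spiked-in RNA they were 1.24, 1.09, 0.52 and, reversed and no longer called, -0.16. Mmp19 was 1.94-fold lower (-0.96 ± 0.21). The other 5 members did not pass the threshold. So 5 of 10 genes were called, against 20.0% of all genes, with 4 higher (9.49% of all genes) and 1 lower (10.5%) (limma with Benjamini-Hochberg adjustment over all genes, adjusted p under 0.05). Over the 10 genes the median log2 change was 0.045, and over all genes -0.0018. Genes that both passed and rose at least 2-fold were 0.945% of the array, and 3 of them, Mmp13, Mmp3 and Mmp10, are members.

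Array medians lay between 6.15 and 6.19, and arrays of a group correlated at 0.995 to 0.997 over all probe sets. Proliferating replicate 1 stood apart on the second principal component (12.4% of the variance), at 17.7 where the remaining 5 arrays ranged from -12.3 to 4.82, and values without it are given beside several results. Probe sets of the poly-A spike-ins, bacterial RNAs added before labelling, read 10.5 to 10.7 on proliferating and 11.0 to 11.5 on senescent arrays. Scaling to them moves the median of all genes to -0.60, and the changes given here are relative to the bulk of the genes. Of 14 stellate cell markers measured, 9 had a mean above background, set at 5.57 log2 units, the 95th percentile over 44 probe sets of olfactory receptors. Acta2, Vim and 3 fibrillar collagen genes were among them, while Lrat, Reln, Lhx2, Gfap and Ngfr were not. The list had 1 gene higher and 5 lower: Pdgfrb was 2.46-fold and Hand2 1.80-fold lower, and Col1a1, Col1a2 and Col3a1 fell, and its summed linear level was 110264 to 111860 in proliferating and 92086 to 92605 in senescent cells. All 5 mesothelial markers had a mean above background, with Msln 1.73-fold higher, Wt1 2.16-fold and Gpm6a 1.49-fold lower, and sums of 12159 to 14225 against 11830 to 11946. All 6 portal fibroblast markers did too, with Thy1 and Fbln2 higher and Cd34 lower. Eln, Entpd2 and Gli1 were not called (log2 changes of -0.083, -0.25 and -0.13), and the list's median was -0.11. Its sums, in which Fbln2 was the brightest gene, were 11780 to 13376 in proliferating and 15412 to 17824 in senescent cells. With spike-in scaling Msln, Thy1 and Fbln2 did not pass (log2 changes of 0.20, 0.19 and -0.10). Nor did Pcdh7, the stellate marker called higher (-0.16). Of 5 biliary markers, 4 had a mean above background, with Krt19 higher (log2 change 0.58) and Krt7 lower (-0.69). Epcam, Sox9 and Cftr also went down without being called (-0.24, -0.23 and -0.28), and the list's median was -0.24. Sums of this list, in which Krt19 was the brightest gene, were 2025 to 2108 in proliferating and 2536 to 2809 in senescent cells. Among 8 hepatocyte markers, 3 had a mean above background (Apoa1, Ttr and Hnf4a), as had 3 of 6 lymphocyte markers (Cd3e, Cd4 and Cd8a). No gene of these 2 lists was called. A mean above background thus does not by itself show that a cell type was present. Of 8 endothelial markers, 7 had a mean not above background, among them Cdh5, which was called higher (means of 5.02 and 5.74). With spike-in scaling Krt19 and Cdh5 did not pass (-0.013 and 0.12). Whether these shifts have a part in the metalloproteinase levels was not tested. Fewer cells of a type and less RNA per cell cannot be told apart in such bulk samples.

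The start regions of the 3 genes with the largest rises are shown first, with those of 2 neighbouring members that were not detected, because these genes lie side by side on chromosome 9. Each sequence is RefSeq's, from assembly GRCm38.p6, and runs from 250 bases before to 50 bases after the transcription start on the plus strand. Capitals mark the AP-1 motif TGANTCA, bound by Fos and Jun family proteins, and the TATA box motif TATAAA, searched on both strands.
Mmp13, chr9:7272264-7272563: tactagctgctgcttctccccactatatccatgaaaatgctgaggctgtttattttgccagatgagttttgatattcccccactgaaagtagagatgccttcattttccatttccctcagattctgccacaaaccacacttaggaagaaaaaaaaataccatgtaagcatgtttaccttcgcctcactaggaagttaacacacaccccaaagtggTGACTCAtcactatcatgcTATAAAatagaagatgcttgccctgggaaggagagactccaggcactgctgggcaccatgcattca
Mmp3, chr9:7445572-7445871: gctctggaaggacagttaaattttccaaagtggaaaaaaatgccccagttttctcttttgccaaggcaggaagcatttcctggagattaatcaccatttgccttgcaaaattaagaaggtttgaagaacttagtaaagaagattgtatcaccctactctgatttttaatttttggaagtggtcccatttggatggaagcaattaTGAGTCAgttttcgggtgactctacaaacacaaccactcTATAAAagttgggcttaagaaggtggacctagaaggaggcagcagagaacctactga
Mmp10, chr9:7502092-7502391: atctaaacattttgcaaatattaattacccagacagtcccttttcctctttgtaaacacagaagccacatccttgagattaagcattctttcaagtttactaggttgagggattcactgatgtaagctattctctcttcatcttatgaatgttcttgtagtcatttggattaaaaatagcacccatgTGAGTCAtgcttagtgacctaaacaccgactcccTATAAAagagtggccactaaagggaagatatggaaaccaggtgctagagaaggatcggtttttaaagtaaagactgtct
Mmp12, the second of its RefSeq starts, chr9:7347124-7347423: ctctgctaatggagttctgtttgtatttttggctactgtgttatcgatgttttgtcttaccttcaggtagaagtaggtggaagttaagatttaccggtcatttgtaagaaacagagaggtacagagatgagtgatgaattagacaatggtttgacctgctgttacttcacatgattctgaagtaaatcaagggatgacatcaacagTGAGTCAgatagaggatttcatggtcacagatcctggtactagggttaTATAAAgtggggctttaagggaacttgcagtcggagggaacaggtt
Mmp8, chr9:7558179-7558478: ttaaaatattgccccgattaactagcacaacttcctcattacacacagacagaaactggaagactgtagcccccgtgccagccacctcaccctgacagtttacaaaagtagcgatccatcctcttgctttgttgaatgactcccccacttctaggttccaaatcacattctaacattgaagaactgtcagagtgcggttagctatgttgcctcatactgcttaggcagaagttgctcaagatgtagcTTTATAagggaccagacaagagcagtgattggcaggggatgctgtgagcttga
The AP-1 letters are TGACTCA in Mmp13, at bases -35 to -29 from the start, and TGAGTCA in Mmp3 (-46 to -40) and Mmp10 (-63 to -57). They are also present in the window shown for Mmp12 (-44 to -38). The window of its first start and that of Mmp8 lack them. The TATA box letters lie at -16 to -11 in Mmp13, -7 to -2 in Mmp3 and -29 to -24 in Mmp10. In the window shown for Mmp12 they lie after the start, at 5 to 10, and the window of its first start lacks them. In Mmp8 the TATA box letters are on the minus strand across the start itself.

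Mmp13 (Entrez gene 17386) encodes collagenase 3, the main interstitial collagenase of rodents, which cuts the fibrillar collagens that stellate cells deposit. It read 7.72, 7.50 and 7.59 (log2) on the proliferating arrays and 9.36, 9.67 and 9.29 on the senescent arrays. All 3 senescent arrays were above all proliferating ones, and the gap between the groups was 1.57 log2 units, wider than the spread within either. The mean went from 7.60 ± 0.11 to 9.44 ± 0.20 (SD, n = 3), with a 95% confidence interval of 2.99-fold to 4.27-fold and an adjusted p of 4.91e-05 (limma).

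Mmp3 (Entrez gene 17392) encodes stromelysin 1, which degrades proteoglycans, laminin and fibronectin and activates the proenzymes of other family members. Its levels were 7.55, 7.61 and 7.48 in proliferating and 9.21, 9.27 and 9.24 in senescent cells. The groups were 1.60 log2 units apart, and the senescent arrays lay within 0.066 of each other. The interval of the rise was 2.90-fold to 3.60-fold (adjusted p = 1.16e-05, limma).

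Mmp10 (Entrez gene 17384) encodes stromelysin 2, a close relative of stromelysin 1. It read 5.59, 5.65 and 5.64 on the proliferating arrays, just above the background level of 5.57, and 6.73, 6.75 and 6.75 on the senescent arrays. Replicates agreed closely in both groups, with SDs of 0.035 and 0.010 (n = 3), and the groups did not overlap. The 2.17-fold rise had an interval of 1.96-fold to 2.40-fold (adjusted p = 4e-05, limma). With background set at those probe sets' 99th percentile, 6.17, the proliferating arrays fell below it and the rise is given only as at least 1.48-fold.

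Mmp14 (Entrez gene 17387) encodes MT1-MMP, a collagenase anchored in the cell membrane that activates the Mmp2 proenzyme together with TIMP2. In its brightest probe set the proliferating arrays read 12.30, 12.26 and 12.30 and the senescent arrays 12.72, 12.59 and 12.85. The groups were 0.29 log2 units apart. The 1.35-fold rise had an interval of 1.19-fold to 1.54-fold (adjusted p = 0.00734, limma). Its other probe sets went the same way: the dimmest from 8.28 ± 0.11 to 8.92 ± 0.13 (SD, n = 3) and the third from 9.88 ± 0.08 to 10.32 ± 0.10. All 3 passed in the fit over all probe sets (adjusted p of 0.0154 for the brightest, 0.00499 for the dimmest and 0.0135, limma), the brightest losing its call without proliferating replicate 2 or 3 or senescent replicate 1 (0.0528 to 0.0544). Its direction depended on scaling: with the arrays scaled to the poly-A spike-ins the brightest probe set gave -0.16 and the dimmest 0.041, and neither passed.

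**Figure D1:**
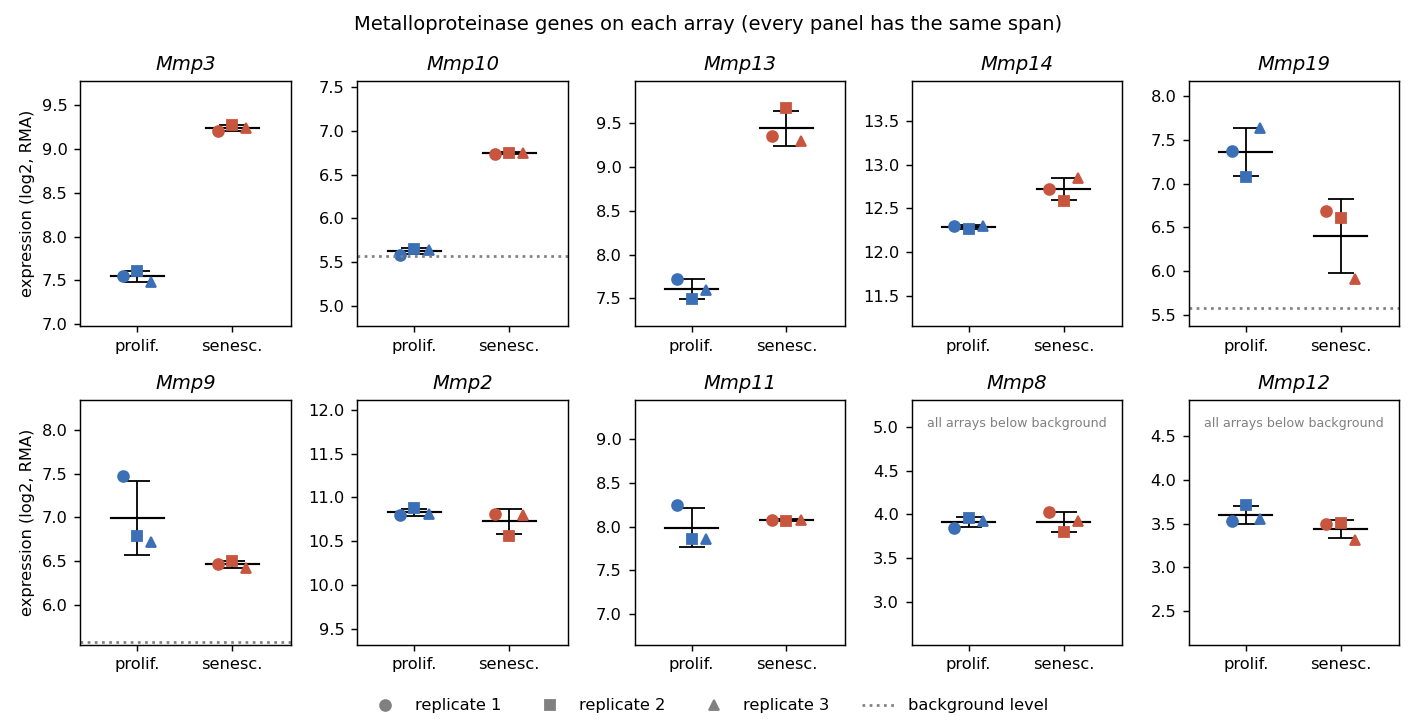
Level of each of the 10 metalloproteinase genes (log2, brightest probe set) on the 3 proliferating (blue) and 3 senescent (red) arrays, with the mean and SD in black, the replicate number as the point's shape and the background level of 5.57 dotted. All panels have the same span but different starting levels, and the groups stand more than 1 log2 unit apart in Mmp3, Mmp10 and Mmp13 only.

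The gelatinase genes Mmp2 (Entrez gene 17390) and Mmp9 (17395) encode enzymes that cut denatured collagen and the type IV collagen of basement membranes. Mmp2 read 10.80, 10.87 and 10.81 in proliferating and 10.81, 10.56 and 10.80 in senescent cells in its brightest probe set. These groups overlapped, and the log2 change was -0.10 with an interval of -0.30 to 0.094 (adjusted p = 0.478, limma). The other probe set gave 0.0073 (interval -0.18 to 0.20). With spike-in scaling, which lowers nearly all genes, the brightest probe set gave -0.70 and passed (adjusted p = 0.00155).

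Mmp9 read 7.48, 6.79 and 6.72 in proliferating and 6.47, 6.50 and 6.42 in senescent cells in its brightest probe set. Proliferating replicate 1 stood above the rest, and the groups did not overlap, with a gap of 0.22. The log2 change was -0.53 ± 0.18 (SE) and did not pass (adjusted p = 0.0771, limma). Its dimmer probe set read 6.45, 5.95 and 6.05 against 5.63, 5.63 and 5.70 and did pass in the fit over all probe sets (-0.50 ± 0.13, adjusted p = 0.0401). That call was lost without proliferating replicate 3 (0.0735) and without any 1 senescent array (0.0928 to 0.117). Without proliferating replicate 1 the change of the gene was -0.29 ± 0.07 and passed (adjusted p = 0.0352, limma): the difference was smaller and so was its SE. It also passed without proliferating replicate 3 (-0.67, adjusted p = 0.0457).

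Mmp19 (Entrez gene 58223), which encodes a secreted enzyme that cuts basement membrane proteins, was the one member that passed in the direction of senescent cells being lower. Its brightest probe set read 7.37, 7.08 and 7.63 in proliferating and 6.69, 6.61 and 5.91 in senescent cells. Senescent replicate 3 was the lowest, the SDs of 0.28 and 0.43 (n = 3) were wide, and the groups were 0.39 apart. The interval of the log2 change ran from -1.45 to -0.47 (adjusted p = 0.0156, limma). The dimmer probe set fell by 0.52 with less spread, from 6.26 ± 0.12 to 5.74 ± 0.10 (adjusted p = 0.00947 over all probe sets, limma).

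Mmp11 (Entrez gene 17385) encodes stromelysin 3, which furin activates before it leaves the cell. It read 8.25, 7.86 and 7.86 in proliferating and 8.08, 8.06 and 8.08 in senescent cells. The senescent arrays lay between the proliferating ones, and the log2 change was 0.083 with an interval of -0.17 to 0.33 (adjusted p = 0.674, limma). As with Mmp9, proliferating replicate 1 held the highest value. Without it the change was 0.21 ± 0.07 (adjusted p = 0.081, limma).

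Mmp8 (Entrez gene 17394), the collagenase of neutrophils, and Mmp12 (17381), the elastase of macrophages, were below background on all 6 arrays, so no fold is given. Mmp8 ranged from 3.80 to 4.03 and Mmp12 from 3.32 to 3.72. Marker genes of the cells known for these enzymes were partly detected. Of 12 macrophage markers, 5 had a mean above background, the highest Cd14, with means of 9.17 and 8.99 in proliferating and senescent cells, and Csf1r, with 7.87 and 8.22. The other 7 did not, among them Adgre1, Ptprc, Itgam and Cd163, which were below it on every array. The summed level of the list on the linear scale was 1158 to 1171 in proliferating and 1124 to 1209 in senescent cells, and Csf1r was the one gene that passed the test (log2 change 0.35 ± 0.07, SE, and -0.25 with spike-in scaling). Of 9 neutrophil markers, 7 were not above background, including S100a8, S100a9 and Mpo, while Camp and Ltf were. The sum of that list was 310 to 337 against 314 to 341.

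**Figure D2:**
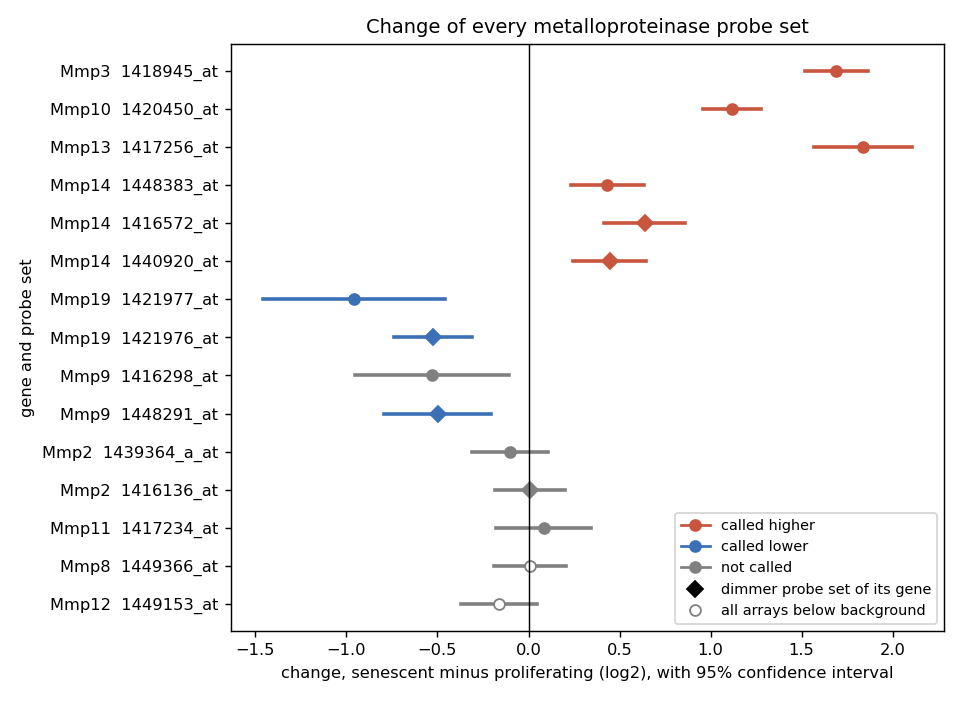
Log2 change (senescent minus proliferating, horizontal axis) of each of the 15 metalloproteinase probe sets with its 95% confidence interval from the fit over all probe sets, where diamonds are the dimmer probe sets of a gene and open circles lie below background on all arrays. The intervals of Mmp3, Mmp10, Mmp13 and all 3 probe sets of Mmp14 lie above 0 (with spike-in scaling Mmp14 loses this), and those of both Mmp19 and both Mmp9 probe sets lie below it.

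Counted by probe set, 9 of the 15 were called at an adjusted p under 0.05 (limma), against 12.4% of all 45101, with 6 higher (6.04%) and 3 lower (6.40%). The groups did not overlap for 7 of the 10 genes, against 37.0% of all genes. Senescent arrays were the higher ones in 4 of these (17.4% of all genes), and in Mmp9, Mmp12 and Mmp19 they were the lower (19.6%). Mmp12 is counted here although it was below background on all 6 arrays, with a gap of only 0.029.

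Genes of the family were also read by their position. In RefSeq's gene order, 10 metalloproteinase genes follow each other on chromosome 9 with no other protein-coding gene between them: Mmp13, Mmp12, Mmp1b, Mmp3, Mmp1a, Mmp10, Mmp8, Mmp27, Mmp20 and Mmp7. Of the 9 with a probe set of their own, Mmp13, Mmp3 and Mmp10 rose. Between them, Mmp12, Mmp1b and Mmp1a were below background on all arrays, as were Mmp8 and Mmp20. Mmp7, at the end of the row, differed by 0.28 ± 0.12 (SE) without passing (adjusted p = 0.169, limma), at levels close to background. The genes that rose were thus interspersed with undetected genes, for which a change cannot be read. The nearest genes outside the cluster were not called higher. Dync2h1 and Dcun1d5 on 1 side had log2 changes of -0.084 and -0.11. On the other, Tmem123 had -0.27 (adjusted p = 0.0892) and Birc2 fell by 0.49 (adjusted p = 0.0155, limma).

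**Figure D3:**
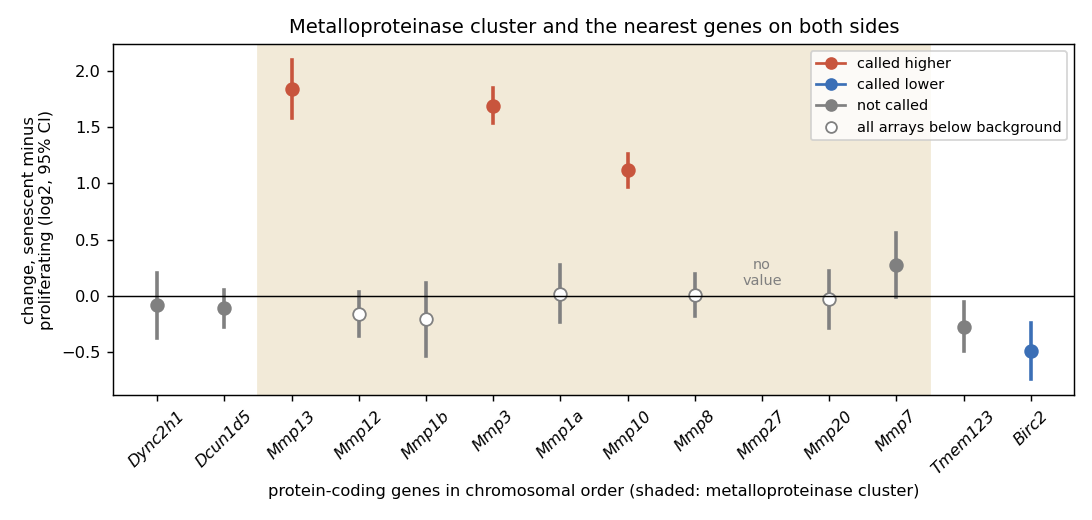
Log2 change (senescent minus proliferating, vertical axis) with its 95% confidence interval for the protein-coding genes of the chromosome 9 metalloproteinase cluster (shaded) and the 2 nearest on either side, in their order along the chromosome and not to distance. Mmp13, Mmp3 and Mmp10 rise above 1 while the genes between them are open circles, below background on all arrays.

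AP-1 letters were common across the cluster, in genes that rose and in genes that were not detected. Of its 10 genes, 8 had TGANTCA in at least 1 RefSeq start window, while 7.81% of all 32851 windows in the table did. The count is by gene and the share by window, and Mmp12 and Mmp7 had 2 windows each. The letters were TGAATCA in Mmp20 and TGAGTCA or TGACTCA in the others. All AP-1 matches in these genes lay upstream of the start. The motif reads the same on both strands. A window of each of the undetected Mmp12, Mmp1a, Mmp1b and Mmp20 held it, as did those of Mmp13, Mmp3 and Mmp10. None of the 8 metalloproteinase genes outside the cluster that had a window, Mmp11 and Mmp14 among them, held it. TATAAA was in 9 of the 10 cluster genes and in 1 of the 8 others (13.6% of all windows). The RUNX motif ACCACA was in 4 of 10 and 2 of 8 (16.8% of all windows), with a match in Mmp13 and in Mmp14. The PEA3 motif AGGAAG, a site of Ets family factors, was in 7 of 10 and 3 of 8 (35.4% of all windows), and Mmp13 held it at 2 places. These motifs were searched on both strands. A letter match is not a measured site, and genes of the cluster share ancestry and so sequence. Of the 10 members, 7 had a window. Mmp2, Mmp9 and Mmp19, which lie outside the cluster, had none, so their start regions were not searched.

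**Figure D4:**
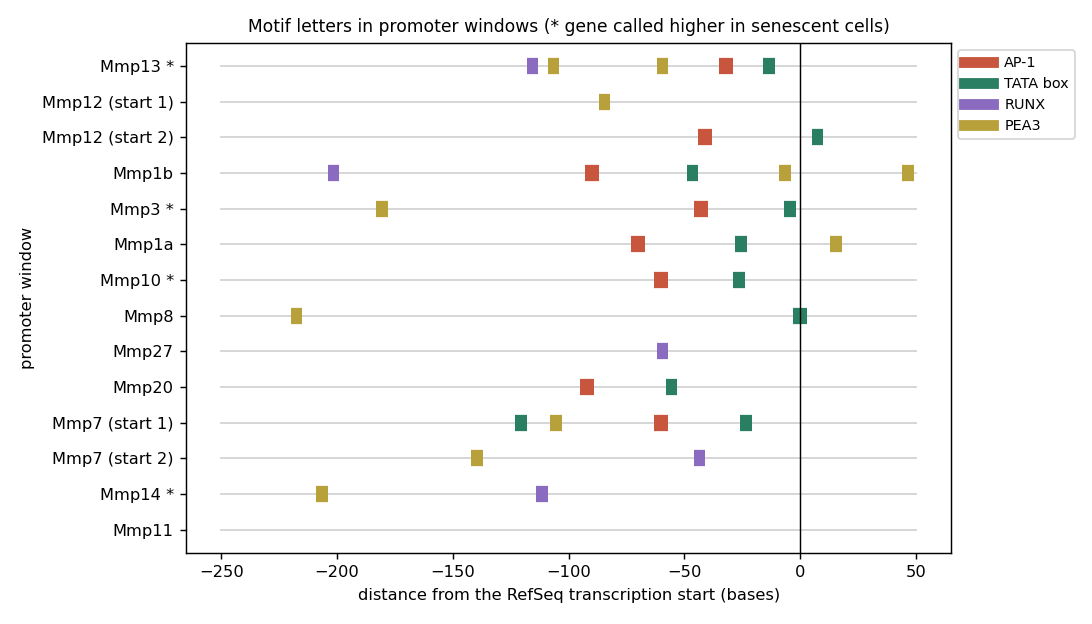
Positions of 4 motifs (coloured blocks, width to scale) in RefSeq start windows of the cluster genes and of Mmp14 and Mmp11, by distance from the transcription start in bases, with genes called higher in senescent cells marked by an asterisk (the call of Mmp14 is lost with spike-in scaling). AP-1 blocks lie between -95 and -29 from the start, in marked and in unmarked genes alike.

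The further lists are given beside the shares of all genes called higher (9.49%) and lower (10.5%). Those shares also cover genes not above background. Fitted alone, the 12500 genes with a mean above background had 1841 called higher and 2179 lower. All 12 surface partners and all 16 regulators are among these 12500, as are 16 of 18 substrates and 8 of the 10 members. Among other metalloproteinases, 8 of 13 listed genes had a probe set of their own, and 2 fell. Mmp23, which encodes a membrane-tethered enzyme, went from 9.93, 9.64 and 9.59 to 8.87, 8.82 and 9.08, a 1.74-fold fall that both of its probe sets showed (adjusted p = 0.00193, limma). Mmp16, or MT3-MMP, another enzyme anchored in the membrane, was 1.65-fold lower, from 8.37, 8.03 and 8.01 to 7.45, 7.46 and 7.33 (adjusted p = 0.00232), in 3 of 4 probe sets. Both genes were highest on proliferating replicate 1, and without it their log2 changes went from -0.80 to -0.69 and from -0.72 to -0.61, both still called. The count of other family members called higher was 0 with limma, and 1 at an unadjusted p under 0.05 (Mmp24, named after its value was seen, 0.25 ± 0.10). The median log2 change of the list was -0.064.

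Of 11 genes of inhibition and clearance, 4 rose and 1 fell, with a median log2 change of 0.056. The risers were Timp1, Timp2, Timp3 and Thbs1, and 6 genes, among them Timp4 and Reck, were not called. Timp1, the inducible inhibitor of most secreted metalloproteinases, read 13.38, 13.15 and 13.18 in proliferating and 13.99, 13.96 and 14.05 in senescent cells, a 1.70-fold rise (adjusted p = 6.06e-04, limma). Timp3, which binds the matrix, rose 1.58-fold and was called in all 4 of its probe sets. Timp2, named after its value was seen, also takes part in Mmp2 activation and rose 1.57-fold, and Thbs1, thrombospondin 1, rose 1.90-fold. Thbs2, whose protein helps to clear Mmp2 from the cell surface through the receptor Lrp1, was 1.83-fold lower, from 9.63, 9.01 and 8.94 to 8.37, 8.37 and 8.21. Without proliferating replicate 1, its highest array, the log2 change went from -0.87 to -0.66. With spike-in scaling none of the list was called higher (log2 changes of 0.17 for Timp1, 0.066 for Timp3 and 0.33 for Thbs1). Reck, a membrane-anchored inhibitor also named after its value was seen, had a log2 change of -0.12 with an interval of -0.35 to 0.12.

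The list on activation of proenzymes had 4 rises and 1 fall among 17 measured genes, with a median of 0.12. It holds genes of the plasmin and furin systems, among them the inhibitor Serpinb2, and other proteases such as Ctsg and Elane. Of the 17, 7 had a mean not above background. Plaur, the receptor that holds urokinase at the cell surface, read 9.33, 9.49 and 9.61 and then 10.92, 10.91 and 10.71, a 2.59-fold rise (adjusted p = 9.04e-05, limma). Plat, tissue plasminogen activator, fell 2.29-fold, called in 1 probe set out of 2, from 11.40, 11.39 and 11.33 to 10.16, 10.40 and 9.98. Serpinb2, an inhibitor of plasminogen activators, was below background on all proliferating arrays and at least 3.10-fold higher in senescent cells, with 4.35 and 7.21 as the means. Pcsk6, a proprotein convertase related to furin, rose 1.65-fold (log2 change 0.72 ± 0.07, and 0.13 with spike-in scaling, where it did not pass).

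Substrates of the enzymes were also mixed. Of 18 matrix genes, 6 rose and 5 fell, with a median of -0.046. Col3a1, a fibrillar collagen of scars and a substrate of collagenases, was 1.90-fold lower, from 14.38, 14.28 and 14.27 to 13.41, 13.43 and 13.32 (adjusted p = 1.28e-04, limma). Dcn, the proteoglycan decorin, was 1.68-fold lower. Col2a1, a cartilage collagen, was 2.02-fold higher and Nid1, a linker of basement membranes cut by stromelysin, 1.82-fold higher, the latter down to a log2 change of 0.27 that did not pass with spike-in scaling. Without proliferating replicate 1 the change of Nid1 was 1.05.

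Of 12 surface partners, which dock the enzymes or sense cut collagen, 3 rose and 1 fell, with a median of 0.018. Cd44, a hyaluronan receptor that can hold Mmp9 at the surface, went from 12.52, 12.43 and 12.54 to 13.56, 13.51 and 13.38, a 1.98-fold rise (adjusted p = 1.28e-04, limma, in 3 of 4 probe sets). It did not pass with spike-in scaling (0.39, adjusted p = 0.0586). The integrin genes Itgav and Itgb1 rose by 0.29 and 0.30 in their brightest probe sets, in 1 of 5 and 1 of 6 probe sets, and both turned negative with spike-in scaling (-0.31 and -0.30). The call of Itgb1 was lost without any 1 array but proliferating replicate 2 (adjusted p of 0.0509 to 0.0864, limma) and with adjustment over all probe sets (0.0522). Itgav lost it without proliferating replicate 3 (0.0618) and with the mean of all probe sets (0.13, adjusted p = 0.268). Itgb3 was lower by 0.37 in 1 of 2 probe sets and was not called with the mean of both (-0.18). Without proliferating replicate 3 the number of partners called higher was 1.

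Transcription factors known to act on metalloproteinase genes showed 3 rises and 1 fall among 16, with a median of 0.10. Calls thus made up 4 of 16, near the share over all genes (20.0%). Fosl1, which encodes the AP-1 subunit Fra-1, read 8.50, 8.05 and 8.37 in proliferating and 9.77, 9.73 and 9.83 in senescent cells, a 2.77-fold rise in both of its probe sets (adjusted p = 1.3e-04, limma). The Ets factor genes Etv4, also called Pea3, and Etv5 rose by 0.55 and 0.48, each in 1 probe set, and both turned negative with spike-in scaling (-0.049 and -0.11). Etv4 also lost its call without senescent replicate 1 or 3 (adjusted p of 0.0532 and 0.0562, limma). Cebpb, a leucine zipper factor, fell by 0.44. Without senescent replicate 3 no fall was called, since Cebpb had an adjusted p of 0.0534 (limma).

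In Atf3, Fosb and Fos, further AP-1 genes named after their values were seen, proliferating replicate 1 stood apart. Atf3 read 9.20 there and 6.81 and 6.90 on the other proliferating arrays, against 9.36, 9.05 and 9.06 in senescent cells. Fosb read 7.88 there, 4.87 and 4.95 on the other proliferating arrays, and 6.66, 6.67 and 6.86 in senescent cells. Fos read 13.13, 11.43 and 10.89, against 11.63, 11.70 and 11.45. Without that array 6 regulators were called higher instead of 3, with log2 changes of 2.30 ± 0.11 for Atf3 and 1.82 ± 0.09 for Fosb (adjusted p of 4.48e-05 and 5.35e-05, limma), while Fos did not pass (0.43, adjusted p = 0.112). On that array Mmp13 read 7.72, the highest of its proliferating values, while Mmp3 at 7.55 was between the other proliferating arrays and Mmp10 at 5.59 was the lowest. Their changes without it were 1.90, 1.69 and 1.10. Whether the state of that array bears on the levels of Mmp9 and Mmp11 was not tested.

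**Figure D5:**
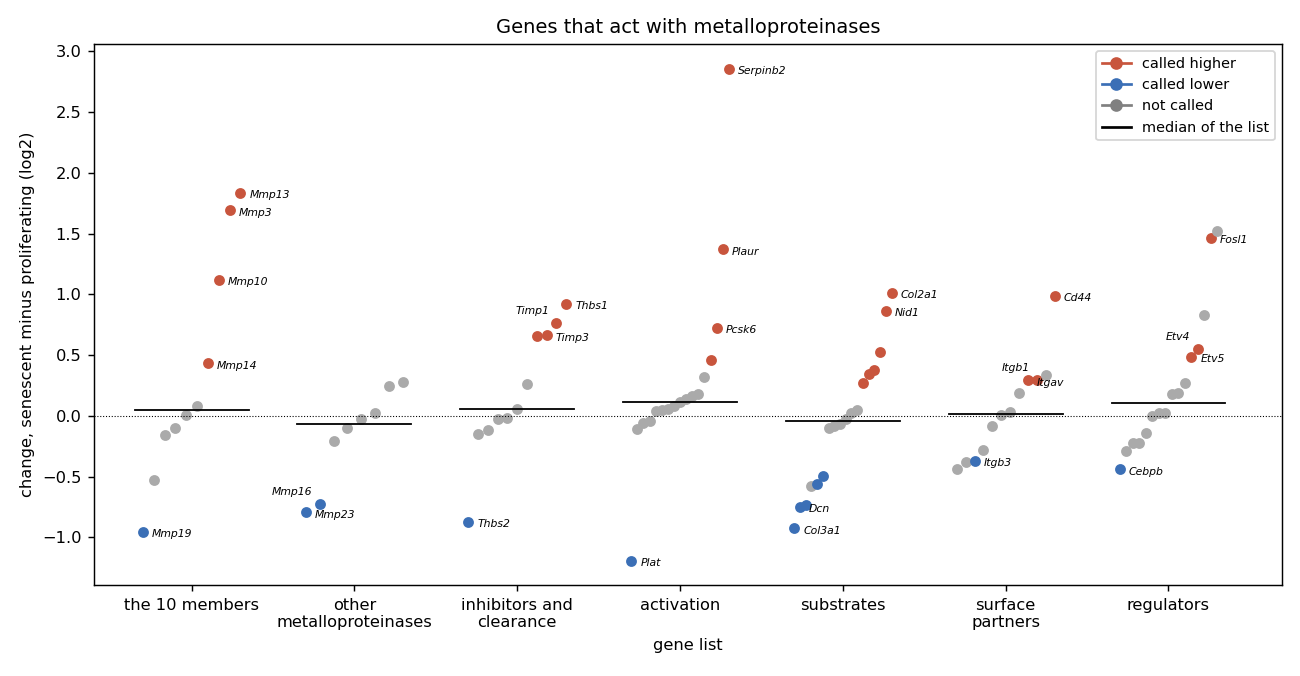
Log2 change (senescent minus proliferating, vertical axis) of the 10 metalloproteinase genes and of the genes of 6 further lists, each point a gene, red where called higher, blue where called lower, grey otherwise, and the black line the list's median. Large changes of both signs occur in most lists, and medians lie between -0.064 and 0.12 (with spike-in scaling Mmp14, Itgav, Itgb1, Etv4 and Etv5 turn negative).

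Genes most like each called member were ranked by Pearson correlation over the 6 arrays, among 11943 named genes with a mean above background. With 2 groups of 3 arrays such a correlation mostly reflects the group difference, and 759 genes reached 0.95 or more with Mmp3, 794 with Mmp10 and 624 with Mmp13. The closest to Mmp13 were Tnfaip3, an inhibitor of NF-kB signalling (r = 0.9993, log2 change 1.12), Thbs1 (0.92) and the potassium channel gene Kcnk2 (0.51). The closest to Mmp3 were the glycosyltransferase gene Mgat5 (r = 0.9997, log2 change 1.07), Ccng1, a p53 target gene that encodes cyclin G1 (0.71), and the small heat shock protein gene Cryab (0.82). Fez2, S100a16 and Procr, the endothelial protein C receptor gene, were closest to Mmp10, with log2 changes of 0.70, 1.36 and 1.70. For Mmp14 they were Rnpep (0.51), Ythdf1 (0.12, adjusted p = 0.256, limma) and Acvrl1 (0.43). For Mmp19 they were Atrnl1, Arl1 and Rbm33, which did not pass (log2 changes of -0.15, -0.18 and -0.13), and 149 genes reached 0.95.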

How the data were processed

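RNA of 6 samples was read on Affymetrix mouse arrays. The authors used RMA, per the submitters' processing notes, to turn probe intensities into 1 deposited log2 value for each probe set. RMA corrects background, quantile normalizes and summarises probes, and understates changes near background and near saturation. Its software, version and any filter: not given in the sources used here. After sorting, arrays agreed to within 0.123.

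Of 45101 probe sets, 34958 had 1 gene symbol, 932 several and 9211 none listed. Symbols were updated through Entrez numbers (34754 found) with a RefSeq table of GRCm38.p6. The probes' build is not stated, so no probe coordinates are given. Each of 18193 genes was read from its brightest probe set. Groups came from the titles. Senescent was compared with proliferating by lmFit and eBayes (limma 3.58.1, R 4.3.3), without covariates, over all genes and, separately, over all probe sets, and tested on simulated data. Means, intervals and promoter motifs were computed with Python 3.11.15. The small number of arrays limits precision.

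Members and lists were chosen with earlier results of these data known. Genes named are all members, up to 4 called genes per list by size of change (the 2 brightest where fewer than 2 were called), the cluster's neighbours and the 3 genes most like each called member. Clones without a gene name were left out of the last. Cell type markers are named besides, by detection or call, and a few genes picked with their values in view, as the text says there. Alternatives covered the probe set rule, scaling, variance model, low-value filter, adjustment over probe sets, background percentile, replicate block and each array left out.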

Additional observations from a re-analysis of the deposited data

How the results depend on the processing

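Of the 10 metalloproteinase genes, 8 kept their direction and their side of the threshold under every alternative other than poly-A scaling. The exceptions were Mmp9, which passed with the mean of all probe sets (-0.51, adjusted p = 0.0403, limma), with robust eBayes and a mean-variance trend (adjusted p = 0.0459), as well as without an array, and Mmp8, whose value near 0 ranged from -0.051 to 0.065 with 1 array left out. The changes of Mmp13, Mmp3 and Mmp10 ranged from 1.72 to 1.91, 1.66 to 1.72 and 1.10 to 1.13 with 1 array left out. The number of members called lower was 2 with the mean of all probe sets and with the robust trend, and 1 to 2 with 1 array left out; member probe sets called lower were 1 to 3. In the fit over all probe sets the brightest Mmp14 probe set lost its call without proliferating replicate 2 or 3 or senescent replicate 1 (adjusted p of 0.0535, 0.0544 and 0.0528, limma), and that of Mmp19 without proliferating replicate 1 or 3 or senescent replicate 2 (0.0566, 0.0823 and 0.0549). The dimmer Mmp2 probe set ranged from -0.027 to 0.072. Scaling to the poly-A spike-ins left 3 members higher and 6 lower (3 and 9 probe sets), with Mmp8 at -0.59, Mmp11 at -0.51, Mmp14 at -0.16 (another of its probe sets at -0.15) and the dimmer Mmp2 probe set at -0.59. It also gave 175 genes higher and 15145 lower over the array, so that 1.14% of calls were higher against 47.4% as deposited. Under it the other metalloproteinases had 6 lower, inhibitors and clearance 0 higher and 6 lower, activation 2 and 12, substrates 1 and 12, surface partners 0 and 8, and regulators 9 lower. Itgb1, Itgav, Etv4 and Etv5 reversed, to -0.30, -0.31, -0.049 and -0.11. Surface partners called lower were 0 with the mean of all probe sets, 3 with the robust trend and 2 among genes above background, and regulators called lower were 3 with the robust trend. With 1 array left out, surface partners called higher were 1 to 3, regulators 2 to 6 higher and 0 to 1 lower, and genes over the whole array 1129 to 1563 higher, the fewest without senescent replicate 1. The bound for Serpinb2 was at least 2.05-fold with background at the 99th percentile. Whether the replicate numbers pair the arrays could not be settled. Same-numbered arrays deviated from their group means with correlations of 0.094, -0.068 and -0.15, and not every array correlated best with its own number. With 3 arrays per group such correlations depend on each other and cannot exclude a pairing. The replicate block left 4 members higher and 1 lower, with 1392 genes higher and 1543 lower over the array, and the dimmer Mmp9 probe set at an adjusted p of 0.0546 (limma). Levels within about 1 log2 unit of background, as in Mmp10, Mmp7 and the dimmer Mmp9 and Mmp19 probe sets, are those whose changes RMA compresses most.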
